A study of Rattus norvegicus with 8 samples.

Results

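The NEK kinases (NIMA-related kinases) of H9c2 cells were examined across culture in space or on the ground, with or without cerium oxide nanoparticles. Of 10 family genes sought by symbol (Nek1 to Nek9 and Nek11), 7 had a named probe set among the 15037 gene symbols of the array: Nek1, Nek2, Nek4, Nek6, Nek7, Nek8 and Nek9. Nek3, Nek5 and Nek11 were not analysed here. Each of the 7 had 1 probe set, so the choice of the brightest probe set per symbol had no effect. Nek1 came to attention through its difference between space and ground on these same arrays, so it was chosen by the measured values of that contrast, which is given as a description with no test. The other members were taken by family name.

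NEK kinases are serine/threonine kinases related to NIMA, the mitotic kinase of Aspergillus, and they act at centrosomes, cilia and the spindle. NEK2 phosphorylates proteins of the linker that holds the centrosomes together, so that they part at mitotic entry. NEK9, activated in mitosis, switches on NEK6 and NEK7, which phosphorylate the spindle kinesin KIF11. NEK1 and NEK8 are linked to primary cilia and to cystic kidney disease, NEK1 and NEK4 also to the DNA damage response, and NEK7 to the NLRP3 inflammasome.

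The cells were H9c2, a permanent myoblast line from embryonic rat heart, kept in differentiation medium without carbon dioxide gassing. Ground untreated cells gave 2 arrays (replicates 1 and 3) and ground cells with nanoceria, cerium oxide nanoparticles coated with serum and given at 100 µg/ml, gave 3. Cells aboard the International Space Station gave 1 array without and 2 with nanoceria. Launch came partway through their culture, and the station was reached on day 7. All cultures were fixed on day 10, and 30 ng of RNA went onto a rat Clariom S Pico array per sample. The ground cultures repeated the temperature course logged in flight at a later time, so regime and culture run cannot be told apart. Whether replicates were separate cultures is not stated beyond the sample labels, so the spread behind each p-value may be technical. In bulk RNA, fewer cells expressing a gene and less RNA per cell cannot be told apart. Ground untreated replicate 2 was not analysed here.

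The upstream sequences of Nek1, Nek7 and Nek2 are shown because their probe sets differed most over the arrays. They are the 250 bases before the annotated start in RefSeq (build GRCr8), 5′ to 3′ on the gene's strand: chr16:34128577-34128826 on the minus strand for Nek1, chr13:52700824-52701073 on the minus strand for Nek7 and chr13:105936559-105936808 on the plus strand for Nek2. All 7 measured members matched an entry by gene identifier. Capitals mark CCAAT (the box bound by NF-Y), TGACG (the core of the CREB and ATF site) and TTTGAA (a form of the cell cycle homology region), each on either strand.
Nek1: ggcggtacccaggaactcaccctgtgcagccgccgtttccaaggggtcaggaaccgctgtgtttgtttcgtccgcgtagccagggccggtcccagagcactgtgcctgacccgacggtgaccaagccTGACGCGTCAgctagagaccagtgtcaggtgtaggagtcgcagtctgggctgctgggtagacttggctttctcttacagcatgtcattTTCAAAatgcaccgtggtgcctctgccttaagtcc
Nek7: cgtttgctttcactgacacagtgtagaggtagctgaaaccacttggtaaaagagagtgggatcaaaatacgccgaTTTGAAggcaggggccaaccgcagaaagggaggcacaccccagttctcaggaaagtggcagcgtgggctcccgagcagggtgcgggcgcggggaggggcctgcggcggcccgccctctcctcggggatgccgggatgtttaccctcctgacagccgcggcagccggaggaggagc
Nek2: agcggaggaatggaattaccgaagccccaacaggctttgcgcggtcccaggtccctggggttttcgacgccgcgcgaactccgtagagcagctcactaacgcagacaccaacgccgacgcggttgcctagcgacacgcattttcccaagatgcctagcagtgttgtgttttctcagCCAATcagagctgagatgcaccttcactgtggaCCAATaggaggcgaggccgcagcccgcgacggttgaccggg
The Nek2 sequence held 2 CCAAT boxes, 74 and 41 bases before the start, and was the only sequence among those of the 7 members to hold any. CCAAT stood in 34.0% of 33469 upstream sequences of this length. The Nek1 sequence held 2 adjoining TGACG matches on opposite strands, 123 and 118 bases before the start, and a TTTGAA on the other strand at 35. TGACG stood in 18.2% of all sequences and in those of Nek1, Nek4, Nek8 and Nek9. TTTGAA stood in 16.2% of all and in those of Nek1, Nek7 (175 bases before the start) and 1 of the 2 Nek6 entries. None of the matches overlapped another motif. These are letter matches only, and the arrays do not measure binding.

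Median intensity per array ran from 107 to 117, and the number of arrays limits the precision. No detection measure was used here, so a dim probe set may lie at background. Of the 9 listed myoblast and early muscle markers, all were measured, and several varied widely: Myog read 6.25 to 9.89 in log2 intensity, Acta1 7.52 to 10.81, Tnnt2 9.18 to 11.43 and Cdh15 8.54 to 9.55. Chrna1, a muscle receptor subunit, read 4.41 to 6.90, and Vim, which is not specific to muscle, at least 13.62. Of the cardiomyocyte markers, Nppa read 5.71 to 7.07 and Ryr2 3.71 to 4.89. The defining markers of leukocytes (Ptprc, 4.03 to 4.62), endothelium (Pecam1, 4.16 to 4.73) and epithelium (Epcam, 3.75 to 4.19) varied little over the 8 arrays. Of the other listed markers of these cell types, Cd68 read 7.11 to 7.74, Kdr 5.85 to 6.24 and Krt18 6.33 to 6.71. Ground untreated replicate 3 stood apart: all 9 measured proliferation markers (Mki67, Ccnb1, Ccna2, Bub1, Aurka, Cenpf, Cdc20, Plk1 and Cdk1) had their lowest value there. The mean deviation of these markers from their mean over all arrays was -2.34 log2 units there, against -0.09 to 0.54 on the other 7 arrays.

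Nek1, whose product is linked to cilia and DNA repair, had its highest level in untreated cells in space and its lowest in nanoceria-treated cells on the ground. Its log2 intensity was 7.22 on the untreated space array and 6.43 on both treated space arrays. It was 5.55 and 5.97 on ground untreated replicates 1 and 3. It was 4.90, 4.76 and 5.02 on ground nanoceria replicates 1, 2 and 3. No array of a group reached the range of the next group, though untreated space cells gave 1 array. Nek1 was chosen for its gap between space and ground, so this order in part repeats that choice and is a description. The share of all probe sets with such an order was not counted. The 8 Nek1 values spanned 2.46 log2 units, with a pooled SD within groups of 0.18.

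**Figure D1:**
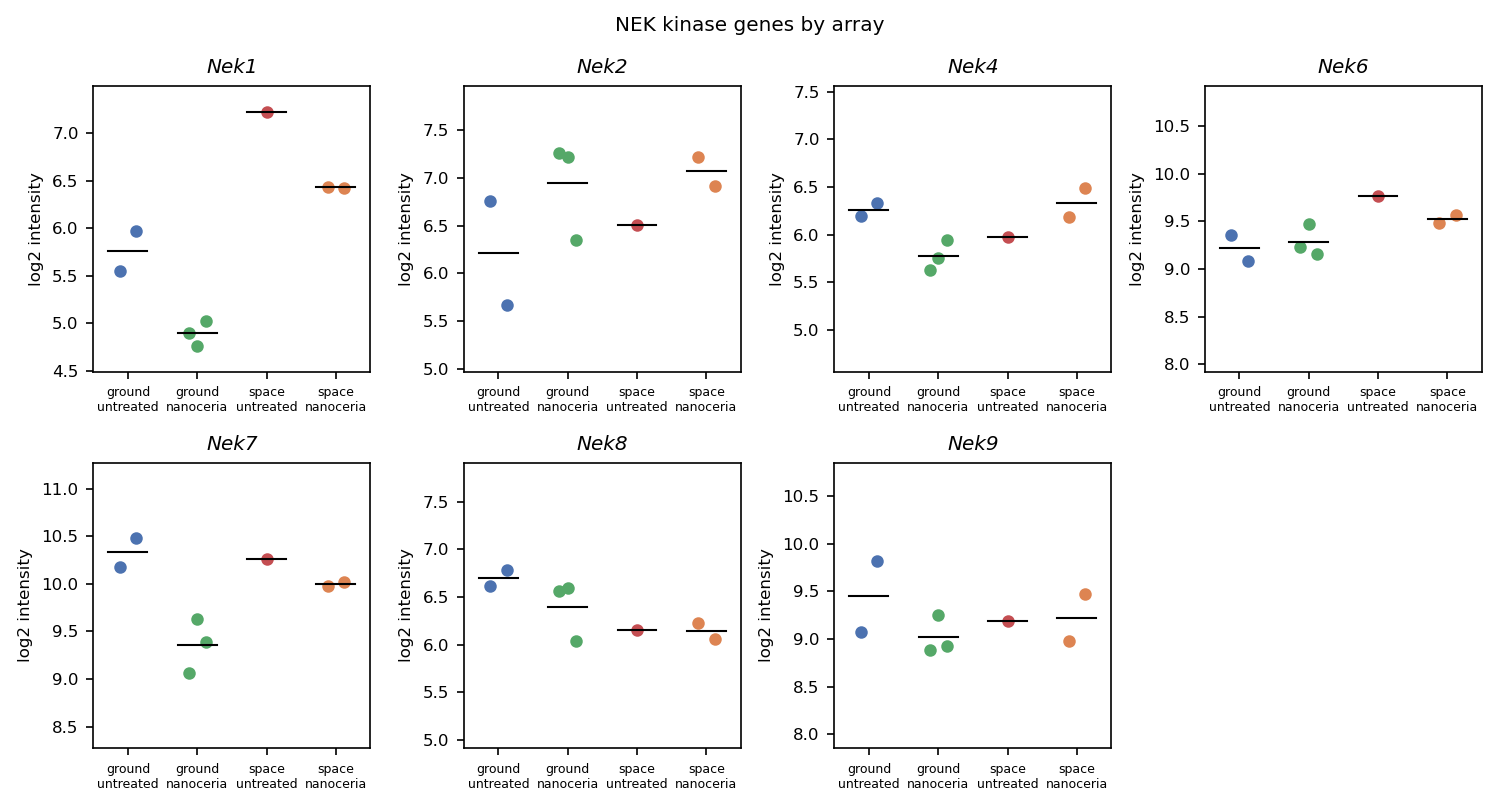
Log2 intensity (y axis) of the 7 measured NEK genes on each of the 8 arrays, by group (x axis). Points are arrays and lines are group means, and each panel covers 3 log2 units around its own midpoint, so levels are not to be compared between panels. Nek1 is highest on the untreated space array (7.22) and lowest on the treated ground arrays (4.76 to 5.02), and Nek7 is lowest on the 3 treated ground arrays.

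As a description, Nek1 lay 1.51 ± 0.14 (SE) log2 units higher in space over both treatments, a 2.85-fold difference. Within treated cells the difference was 1.53 ± 0.18, and between the means of untreated cells it was 1.47. Leaving out any 1 array gave 1.45 to 1.58. Because the gene was noticed for this value, no p is attached to it, and refits of the same arrays are no independent check.

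The choice of Nek1 was made on the space contrast and not on the nanoceria comparison. Both take their spread from the same arrays, so the nanoceria p-values of Nek1 are not free of that choice. Over both regimes Nek1 lay lower with nanoceria by 0.84 log2 units (-0.84 ± 0.14, SE, or 1.79-fold), with adjusted p = 0.320 by limma over all probe sets, so it did not pass. The difference was -0.86 ± 0.18 on the ground (adjusted p = 0.203, limma) and -0.79 in space, where 1 untreated array stood against 2 treated. Treated arrays lay below untreated arrays within each regime, but over both regimes they overlapped, because treated space arrays lay above untreated ground arrays. The sign was kept when each array was left out in turn, with values of -0.94 to -0.72 over both regimes. Without ground untreated replicate 3 the ground difference was -0.65 and without ground untreated replicate 1 it was -1.07.

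NEK7, NEK6 and NEK9 form the spindle cascade, and of their genes Nek7 varied most. Nek7 read 10.18 and 10.49 on ground untreated replicates 1 and 3. It read 9.06, 9.63 and 9.39 on ground nanoceria replicates 1, 2 and 3. The untreated space array gave 10.26 and the treated space arrays 9.97 and 10.02. All 5 treated arrays lay below all 3 untreated arrays, and the treated ground arrays were lowest. Over both regimes the difference was -0.72 ± 0.19 (unadjusted p = 0.00535, adjusted p = 0.412, limma). On the ground it was -0.97 ± 0.21 (unadjusted p = 0.00195, adjusted p = 0.207, limma), and in space the means differed by -0.27. In treated cells Nek7 lay 0.64 ± 0.21 higher in space than on the ground (adjusted p = 0.483, limma), with no overlap, while untreated means differed by -0.07.

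Nek6, which encodes the closest relative of NEK7, read 9.76 on the untreated space array and 9.49 and 9.56 on the treated ones. On the ground it read 9.36 and 9.08 untreated (replicates 1 and 3) and 9.23, 9.47 and 9.16 with nanoceria. Every space array lay above every ground array, though the lowest space value stood close to the highest ground value. The difference of 0.35 ± 0.14 had an unadjusted p = 0.0344 and an adjusted p = 0.491 (limma). Without the untreated space array it was 0.24 (adjusted p = 0.743, limma). With nanoceria Nek6 differed by -0.04 ± 0.14 over both regimes.

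Nek9, the upstream kinase of the cascade, read 9.19 on the untreated space array and 8.98 and 9.48 on the treated ones. On the ground it read 9.08 and 9.82 untreated and 8.89, 9.26 and 8.93 with nanoceria. Its groups overlapped in every comparison, and the highest of all values fell on ground untreated replicate 3. Space and ground differed by 0.03 ± 0.22. The ground nanoceria difference of -0.42 ± 0.27 was -0.05 without ground untreated replicate 3 and -0.79 without replicate 1.

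Nek2, the centrosome-splitting kinase whose transcript peaks late in the cell cycle, was lowest on the array with the lowest proliferation markers. It read 6.76 and 5.67 on ground untreated replicates 1 and 3, and 7.27, 7.22 and 6.35 on ground nanoceria replicates 1, 2 and 3. It read 6.50 on the untreated space array and 7.22 and 6.91 on the treated ones. The lowest value was on ground untreated replicate 3, where all 9 proliferation markers were also lowest, and the next lowest on ground nanoceria replicate 3, which had the next lowest marker mean. Nek2 lay higher with nanoceria by 0.67 ± 0.29 over both regimes (adjusted p = 0.517, limma) and by 0.73 ± 0.39 on the ground. Without ground untreated replicate 3 these were 0.36 and 0.19, and without ground untreated replicate 1 they were 0.94 and 1.28. Space and ground differed by 0.18 ± 0.29. The part of the proliferation markers in these differences was not tested.

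**Figure D2:**
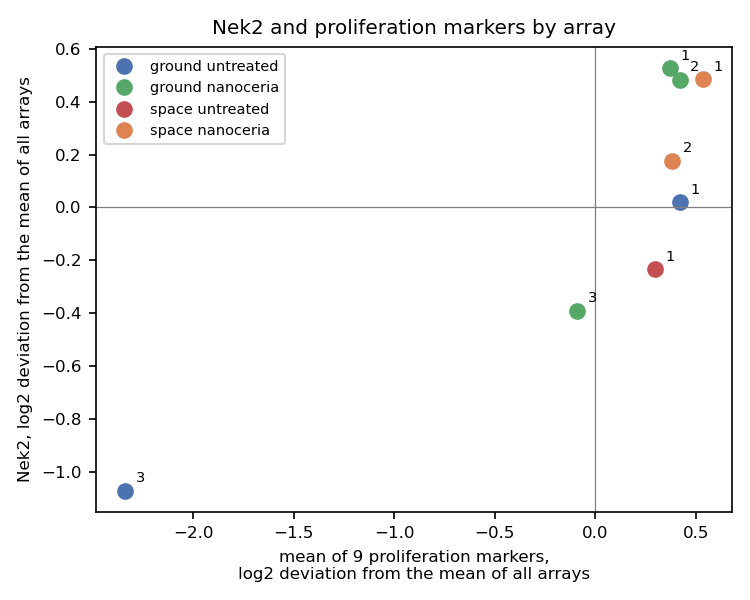
Nek2 (y axis) against the mean of 9 proliferation markers (x axis), both as the log2 deviation from the mean of all arrays. Points are the 8 arrays, coloured by group and numbered by replicate. Ground untreated replicate 3 lies alone at -2.34 and -1.07, and ground nanoceria replicate 3 is next at -0.09 and -0.39.

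Nek4, which encodes a kinase linked to the DNA damage response and to cilia, was lowest in treated ground cells. It read 5.63, 5.75 and 5.94 there, against 6.20 and 6.33 in untreated ground cells. In space it read 5.97 untreated and 6.18 and 6.49 treated. The treated ground arrays lay below all 5 other arrays, though the highest of them (5.94) stood close to the untreated space array (5.97). Nek4 thus lay lower with nanoceria on the ground (-0.49 ± 0.18, unadjusted p = 0.0264, adjusted p = 0.391, limma), while the space means differed by 0.36 in the other direction. The unadjusted p on the ground was 0.107 without ground untreated replicate 3, 0.0687 without ground nanoceria replicate 1 and 0.0614 without ground nanoceria replicate 2 (limma). In treated cells it was higher in space by 0.56 ± 0.18 (adjusted p = 0.473, limma), and untreated means differed by -0.29.

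Nek8, which encodes a kinase of the inversin compartment of the primary cilium, read 6.15 on the untreated space array and 6.23 and 6.06 on the treated ones. On the ground it read 6.62 and 6.78 untreated and 6.56, 6.59 and 6.04 with nanoceria. In the main fit it was the only measured member with a lower fitted level in space, by -0.36 ± 0.16 (unadjusted p = 0.0573, adjusted p = 0.534, limma). Ground nanoceria replicate 3 was lowest of all 8 arrays, and the other 4 ground arrays lay above every space array. Without that replicate the difference was -0.48 (unadjusted p = 0.00413, adjusted p = 0.552, limma), and without the untreated space array it was -0.25. With nanoceria Nek8 differed by -0.20 ± 0.16 over both regimes. Other members also had a lower fitted level in space under some alternatives. Nek9 lay at -0.15 without space nanoceria replicate 2, and Nek2 at -0.20 with the replicate number as a block.

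Counted over the family, no tested member passed an adjusted p of 0.05 with limma in any of the 5 comparisons, nor did any of the 23188 probe sets (0%). Nek1 was not tested between space and ground. At an unadjusted p below 0.05, 1 of the 6 members other than Nek1 (Nek6, higher) was called between space and ground, against 9.56% of all probe sets, and Nek6 was also the 1 of 6 whose space and ground arrays did not overlap, against 5.11%. Within treated cells it was 2 of 6 (Nek4 and Nek7, both higher in space), against 8.41%, and 3 of 6 (Nek4, Nek6 and Nek7) did not overlap, against 31.2%. Nek7 was not called there without space nanoceria replicate 1 (unadjusted p = 0.0631, limma) or replicate 2 (0.0782), and Nek4 was not without space nanoceria replicate 2 (0.122). For nanoceria over both regimes it was 2 of 7 (Nek1 and Nek7, both lower), against 9.63%, and 1 of 7 (Nek7) did not overlap, against 4.74%. On the ground it was 3 of 7 (Nek1, Nek4 and Nek7, all lower), against 11%. The ground arrays of Nek1, Nek4, Nek7 and Nek8 did not overlap between treatments, 4 of 7 where 26.3% of all probe sets did not. The comparisons share arrays, so these counts are not independent of each other, and those with Nek1 are not free of its choice on these arrays. With so few members the shares were not tested against the background.

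Whether the nanoceria difference was unlike in space and on the ground was asked with the interaction of regime and treatment, which rests on the single untreated space array. For Nek1 the nanoceria difference in space minus that on the ground was 0.07 ± 0.30, smaller than its error. For Nek4 it was 0.85 ± 0.30 (unadjusted p = 0.0223, adjusted p = 1, limma), and for Nek7 0.71 ± 0.35. Nek4 was the 1 member of 7 with an unadjusted p below 0.05, against 2.35% of all probe sets. Its unadjusted p was 0.0511 without ground untreated replicate 3 and 0.0789 without space nanoceria replicate 2. With both Nek4 and Nek7, the untreated space array lay below the untreated ground mean or near it, and the treated space arrays lay above the treated ground arrays.

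Genes that act with the NEK kinases were read from 6 lists holding 50 genes, of which 38 were measured. No listed gene passed an adjusted p of 0.05 in space against ground or with nanoceria (limma, 0 of 23188 probe sets). Among 6 measured partners and substrates of NEK1, 2 were higher in space at an unadjusted p below 0.05, where 9.56% of all probe sets passed in either direction. These were Kif3a, a motor subunit of intraflagellar transport, at 0.43 ± 0.16, and Vdac1, the mitochondrial outer membrane channel, at 0.43 ± 0.16. Kif3a also lay lower with nanoceria by -0.43 ± 0.16 (unadjusted p = 0.0248, adjusted p = 0.465, limma). Kif3a read 7.55, 7.81 and 7.29 on the treated ground arrays and 8.03 to 8.29 on the other 5. Nek1, Nek4 and Nek7 were also lowest on the treated ground arrays, but Kif3a was named for its small p in these comparisons. The share of all probe sets with that pattern was not counted. Atrip, the partner of the checkpoint kinase ATR, lay at -0.30 ± 0.15 in space. Of the 6 genes, 3 had a positive difference in space, against 41.3% of all probe sets. The list median was 0.17 in space against -0.04 for all probe sets. Without ground untreated replicate 3 the list median was 0.08, and Kif3a was no longer called for nanoceria.

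Of 11 measured genes of the centrosome linker and NEK2 regulators, 9 had a positive difference in space, with a median of 0.28, and 1 had an unadjusted p below 0.05, a share near the 9.56% of all probe sets. This was Stk3, a kinase upstream of NEK2 in linker control, at 0.54 ± 0.19. Without ground untreated replicate 3, 7 of the 11 genes had a positive difference in space, and the median was again 0.28. With nanoceria the median was near 0 (-0.0021), and Mad1l1, a spindle checkpoint gene whose product NEK2 binds, lay at 0.52 ± 0.19 (unadjusted p = 0.0269, adjusted p = 0.470, limma). Mad1l1 was not called without ground untreated replicate 3. Mad1l1 read 7.82 and 7.96 on the untreated ground arrays and 8.37 to 8.98 on the other 6. In the spindle cascade, 7 of 7 measured genes had a positive difference in space (median 0.39) and 4 of 7 with nanoceria (median 0.54), and none had an unadjusted p below 0.05 in either. Of all probe sets, 41.3% had a positive difference in space and 56% with nanoceria. The list holds Plk1 and Cdk1, which are also proliferation markers. Without ground untreated replicate 3 the counts were 5 of 7 in space (median 0.02) and 3 of 7 with nanoceria (median -0.16), so the higher list medians rested on that array. Plk1, the activator of NEK9, read 7.21 on ground untreated replicate 3 and 10.89 to 11.56 on the other 7 arrays, so its nanoceria difference of 1.57 ± 0.77 had a wide error.

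Around NEK8, Invs, which encodes the scaffold inversin, lay 0.47 ± 0.20 higher in space (unadjusted p = 0.0414, adjusted p = 0.507, limma), opposite in sign to Nek8, and was not called without ground untreated replicate 3. Anks6, Anks3 and Pkd2 lay at -0.12 to 0.03. Of 5 measured genes of the NEK7 inflammasome list, none had an unadjusted p below 0.05, with Nlrp3, the sensor of the complex, at 0.57 ± 0.32 (called without ground untreated replicate 3) and Il18 at -0.27 ± 0.16 in space. The 6 measured genes of the checkpoint list around NEK11 had a median of 0.0008 in space and 0.08 with nanoceria, with Cdc25b, a mitotic entry phosphatase, at 0.55 ± 0.24 with nanoceria (adjusted p = 0.517, limma).

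**Figure D3:**
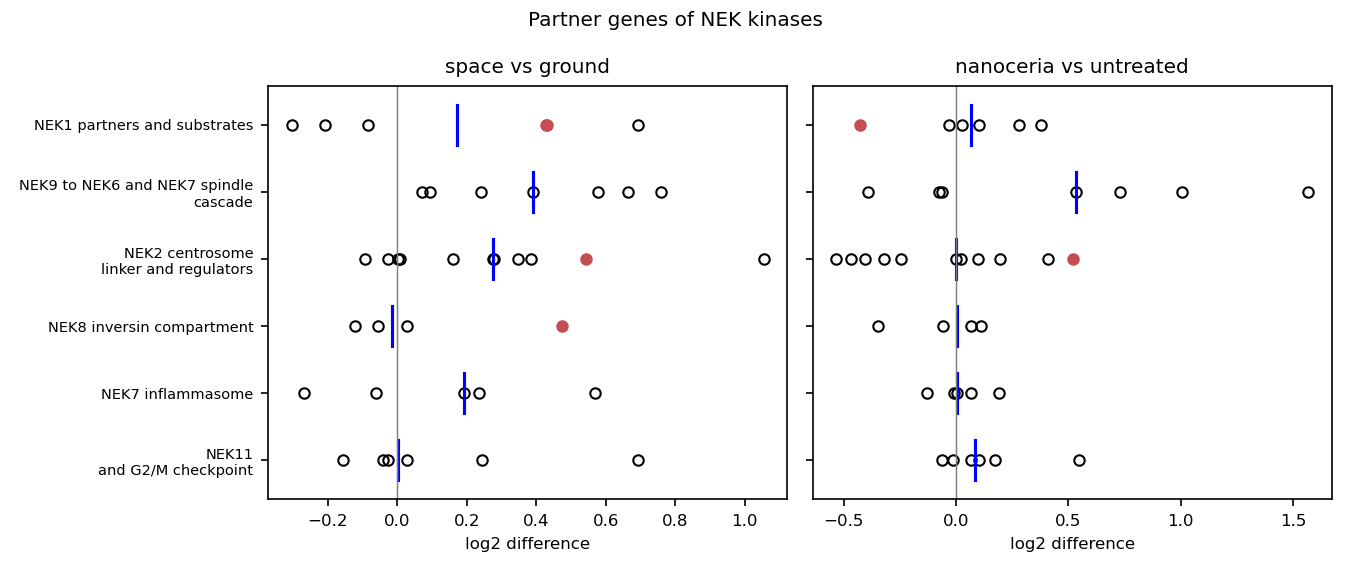
Log2 differences (x axis) of the 38 measured partner genes in 6 lists (y axis), for space against ground (left) and nanoceria against untreated (right). Each circle is a gene, filled where the unadjusted p was below 0.05, and the vertical bars are list medians. Filled points on the left are Kif3a and Vdac1 (overlying each other at 0.43), Stk3 at 0.54 and Invs at 0.47, and on the right Kif3a at -0.43 and Mad1l1 at 0.52.

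The genes whose levels followed Nek1 most closely over the 8 arrays were Apool, a cristae-organising protein of mitochondria (Pearson's r = 0.961), Kcnd3, a potassium channel subunit (0.959), Stk39, a kinase that controls ion cotransporters (0.958), Npr3, the natriuretic peptide clearance receptor (0.948), and Fbxo11, a ubiquitin ligase subunit (0.946). They were the 5 highest of 4724 named probe sets that spanned at least 1 log2 unit. All 5 lay higher in space (0.55 to 0.96) and lower with nanoceria (-0.78 to -0.42), as Nek1 did, though their differences were smaller than the 1.51 of Nek1 in space. The 5 closest to Nek2 were Gmnn, an inhibitor of replication licensing (0.968), the centromere gene Hjurp (0.966), the spindle gene Tacc3 (0.957), the kinetochore gene Nsl1 (0.951) and the cyclin gene Ccnf (0.948). Without ground untreated replicate 3 these 5 had r of 0.867 to 0.931 over 7 arrays, and the 5 genes like Nek1 had 0.948 to 0.972. These correlations describe arrays that share groups and a chosen pattern, and carry no test.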

How the data were processed

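Total RNA of 8 H9c2 samples was hybridised to 1 array each. The deposited intensity values, 1 per probe set and array, were made by the authors with RMA, per the submitters' processing notes; software, version and settings are not given in the sources used here. RMA makes arrays alike in distribution, so a shift common to most genes would not be seen. The design had assumed log2 values; the deposited values were linear, so log2 was taken without a pseudocount. Symbols came from the platform's annotation (15049 of 23188 probe sets).

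Tests used limma 3.58.1 under R 4.3.3 on every probe set (empirical Bayes, Benjamini-Hochberg, threshold 0.05). Regime and treatment entered together, without interaction, for the comparisons that pool a factor (residual degrees of freedom, 5). One mean per group served for the ground, treated and interaction contrasts (residual degrees of freedom, 4), where the single untreated space array is assumed to vary like the rest. In simulated data of 23188 probe sets with 200 changed, a 2-fold change (1 log2 unit) between space and ground was recovered in 47% of cases, and a change of 2 log2 units in 89.5%. For nanoceria on the ground these were 0% and 81.5%. The noise was drawn independently for each probe set and array, so no simulated array stood apart as ground untreated replicate 3 did. Recovery on the real arrays may therefore differ.

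The members and lists were chosen with earlier results of these data known. All members were named; from each list up to 3 genes with the smallest p in either main comparison, and the 5 genes with the highest correlation to Nek1 and to Nek2. Alternatives were other scalings, a filter on dim probe sets, other variance models, array weights, the replicate number as a block, another contrast and leaving out each array. The motif letters and the sequences shown were chosen after the values were seen. Whether replicate numbers pair the samples was not settled. Same-numbered arrays of different groups had deviations from group means correlated at -0.348 to -0.0133, and differently numbered arrays at -0.109 to 0.348. In groups of 2 arrays the deviations mirror each other, and the single untreated space array could not enter. These correlations therefore cannot decide the question.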

Additional observations from a re-analysis of the deposited data

How the results depend on the processing

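Nek1 kept its sign and lay within 1 SD of 1.51 between space and ground under every alternative tried, from 1.45 to 1.62. These fits reuse the arrays on which Nek1 was chosen for this contrast, so they are no independent check of it. No member other than Nek1, whose own space and ground comparisons carry no test, passed an adjusted p of 0.05 in any alternative, and Nek1 did not for nanoceria or the interaction. Members at an unadjusted p below 0.05 between space and ground were 2 with array weights (Nek6 and Nek8; all probe sets called also went from 2217 to 3231) and 0 with the replicate block, and 0 to 2 when 1 array was left out. Nek6 was no longer called when the untreated space array was removed, nor when ground nanoceria replicate 1 or 3, ground untreated replicate 3 or the second treated space array was. On the ground the leave-one-out range for nanoceria was 2 to 5, in treated cells between regimes 0 to 3, and for the interaction 0 to 2, with 0 under the replicate block. Nek1 and Nek7 were among the members called for nanoceria, over both regimes and on the ground, in every alternative. Of all probe sets between space and ground, 4 passed an adjusted p of 0.05 with array weights and 0 to 1 with 1 array left out (1 without ground untreated replicate 3 and 1 without ground nanoceria replicate 2). These counts include the probe set of Nek1, which was chosen on this contrast, so nothing is read from them about it; the others were Apool, Stk38l, Stc1 and 1 unnamed. Counts of all probe sets at an unadjusted p below 0.05 were 1284 with the replicate block between space and ground (1231 to 2910 with 1 array left out), and 1462 for nanoceria with the group-mean contrast. In treated cells they were 3065 with array weights, 1059 with the replicate block and 990 to 2337 with 1 array left out. For the interaction they were 362 with the brighter probe sets, 340 with the replicate block and 343 to 1330 with 1 array left out. For nanoceria on the ground 0 to 167 passed an adjusted p of 0.05 with 1 array left out, the 167 without ground untreated replicate 1. Of 482 single-member values under alternatives, 464 lay within 1 SD (the member's own, within groups) of the main value, and 21 changed sign. For Nek2 and Nek9 this SD (0.54 and 0.35) exceeded the difference between space and ground (0.18 and 0.03). A value within 1 SD can therefore still have the other sign. The cause of these changes was not tested. The alternative of averaging several probe sets per symbol could not be run, since each member had 1. Whether the numbers used in the replicate block pair the samples was not settled. With equal array medians (0.70) and with array weights (0.71) Nek2 was called for nanoceria over both regimes. Under the replicate block Nek2 was called over both regimes (0.64) and on the ground (0.62). Nek4 was no longer called there on the ground (-0.51) or in the interaction (0.78). Signal over background is unknown here, which limits what the lowest values of each member can show. Leaving out ground untreated replicate 3 for the partner lists was chosen after seeing the data.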
